A study of Mus musculus with 24 samples.

Results

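The 9 genes described here belong to the mechanical sensing and anchoring apparatus of striated muscle, make up 9 of the 56941 genes listed, and were followed across optical stimulation frequencies in engineered mouse muscle. They were chosen by name alone: the 3 muscle ankyrin repeat genes Ankrd1, Ankrd2 and Ankrd23, the Xin repeat genes Xirp1 and Xirp2, and the linked genes Nrap, Flnc, Des and Tcap. All 9 were found, and all 9 were among the 13315 genes kept by the filter on low counts. The tissues were made from C2C12, mouse myoblasts that form contracting myotubes in culture, and every group, the controls included, carried ChR2 fused to tdTomato, a cation channel that opens in blue light. Tissues were grown as aligned monolayers on fibrin gel and differentiated with horse serum and IGF-1. The control was not stimulated, and the other groups received 60 min of light pulses daily at 1, 4 or 10 Hz, with 6 libraries per group and 24 in all. The replicates are described as biological, but all come from 1 engineered line, so p-values measure the spread between tissues of that line. Low-input samples were ribodepleted instead of poly(A) selected, and the sources do not say which libraries these were.

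Muscle fibers carry load along a chain that runs from titin through the Z-disc to the membrane. The ankyrin repeat proteins bind the spring region of titin and can also enter the nucleus, the Xin proteins bind and bundle actin at cell junctions and at sites of myofibril repair, and Nrap links actin to assembling myofibrils. Filamin C crosslinks actin at the Z-disc, desmin forms the intermediate filaments that tie neighboring Z-discs together, and Tcap caps the end of titin. Several of these genes are known to respond to stretch or injury in muscle.

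In GRCm39 with GENCODE M39 the ankyrin repeat genes are Ankrd1 (ENSMUSG00000024803) at chr19:36089352-36097506, 9 exons, Ankrd2 (ENSMUSG00000025172) at chr19:42024274-42033552, 9 exons, and Ankrd23 (ENSMUSG00000067653) at chr1:36563865-36575964, 9 exons. The Xin genes are Xirp1 (ENSMUSG00000079243) at chr9:119842821-119852664, 1 exon, and Xirp2 (ENSMUSG00000027022) at chr2:67004178-67356962, 9 exons. The linked genes are Nrap (ENSMUSG00000049134) at chr19:56308454-56378631, 42 exons, Flnc (ENSMUSG00000068699) at chr6:29433072-29461887, 47 exons, Des (ENSMUSG00000026208) at chr1:75320511-75345223, 9 exons, and Tcap (ENSMUSG00000007877) at chr11:98274637-98275779, 2 exons. Exons are those of the canonical transcript, and counts cover each gene as a whole.

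Upstream windows are shown for 3 of the genes that passed an adjusted p in some comparison below and whose window holds no annotated exon. The 250 bases upstream of the annotated start of the canonical transcript were read from GRCm39 with GENCODE M39. They are written 5' to 3' on the strand of the gene, and capitals mark E-boxes (CANNTG, the motif bound by myogenic factors, which reads alike on both strands) and the MCAT motif (CATTCC on either strand, bound by TEAD factors). They lie at chr19:36097507-36097756 (minus strand) for Ankrd1, chr1:36574908-36575157 (minus) for Ankrd23 and chr11:98274387-98274636 (plus) for Tcap.
Ankrd1: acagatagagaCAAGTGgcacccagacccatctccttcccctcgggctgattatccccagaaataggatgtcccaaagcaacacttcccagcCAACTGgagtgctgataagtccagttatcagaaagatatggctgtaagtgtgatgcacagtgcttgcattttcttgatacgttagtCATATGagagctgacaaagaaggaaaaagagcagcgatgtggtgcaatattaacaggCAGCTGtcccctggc
Ankrd23: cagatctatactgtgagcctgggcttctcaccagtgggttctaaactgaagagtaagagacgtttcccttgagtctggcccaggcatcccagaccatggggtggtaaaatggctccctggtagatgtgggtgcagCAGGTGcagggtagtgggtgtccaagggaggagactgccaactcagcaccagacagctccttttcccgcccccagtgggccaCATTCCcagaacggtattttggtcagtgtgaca
Tcap: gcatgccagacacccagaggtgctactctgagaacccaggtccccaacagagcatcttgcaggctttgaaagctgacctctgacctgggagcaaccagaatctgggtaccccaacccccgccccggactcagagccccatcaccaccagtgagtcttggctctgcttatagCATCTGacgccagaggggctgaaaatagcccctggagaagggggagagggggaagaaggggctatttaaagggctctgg
Ankrd1 held 4 E-boxes in this window, and Ankrd23 and Tcap held 1 each. The windows of Ankrd2, Xirp1, Xirp2 and Des also held at least 1 E-box and that of Flnc held none, beside 64.8% of 21757 windows of the same length with a match. MCAT stood in Ankrd23 and Des (12.1% of all windows), and the MEF2 motif in Xirp2 (2.79%). The windows of Xirp1 and Xirp2 overlap exons of other transcripts of the same genes and are not shown. A match describes letters in this window and nothing about binding.

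The libraries differed in composition as well as in group. Total estimated counts ran from 8052369 to 18159144, and mitochondrial genome counts from 0.545% to 8.90% of a library. In 4 libraries, 1 Hz replicates 4 and 6 and 4 Hz replicates 3 and 4, the 100 most abundant genes held over 26% of all counts. Relative to the controls, the median log2 level of coding genes shorter than 1500 bases minus that of coding genes longer than 5000 was lowest in the control and 10 Hz groups (group medians -0.031 and -0.019), and was 0.20 for the 1 Hz and 0.47 for the 4 Hz libraries. The level of a gene is given below as CPM, counts relative to the TMM-scaled library total, and as TPM, which also divides by transcript length, where genes are compared with each other. The 14 myotube markers were all expressed, with a summed level of 23810 to 29283 TPM in the controls. The fibroblast markers summed to 496 to 794 TPM in the controls and the cardiac markers to 2621 to 3327 TPM. Within these lists Tcf21 (fibroblast) and Myl7 (cardiac) were at 0 in every library.

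On the TPM scale the genes spanned 122-fold in the unstimulated controls. Des stood first at 1283 ± 57.1 TPM (SD, n = 6), followed by Ankrd1 at 903 ± 60.6, Ankrd2 at 541 ± 63.7, Ankrd23 at 166 ± 21.1 and Flnc at 99.6 ± 17.5. Xirp1 at 47.1 ± 8.36, Tcap at 34.4 ± 3.86 and Nrap at 29.3 ± 3.10 formed a lower group, and Xirp2 was lowest at 10.5 ± 1.41. The ranges of Xirp1 and Tcap overlapped in the controls, as did those of Tcap and Nrap, and all other neighbors in this order were separate. Des ranked 134th, Ankrd1 192nd and Ankrd2 272nd by mean control TPM among all listed genes. Together the 9 genes summed to 3113 ± 181 TPM in the controls and 2718 ± 354 at 4 Hz, and Des alone made up 41.2% of the sum in the controls and 43.5% at 4 Hz.

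**Figure D1:**
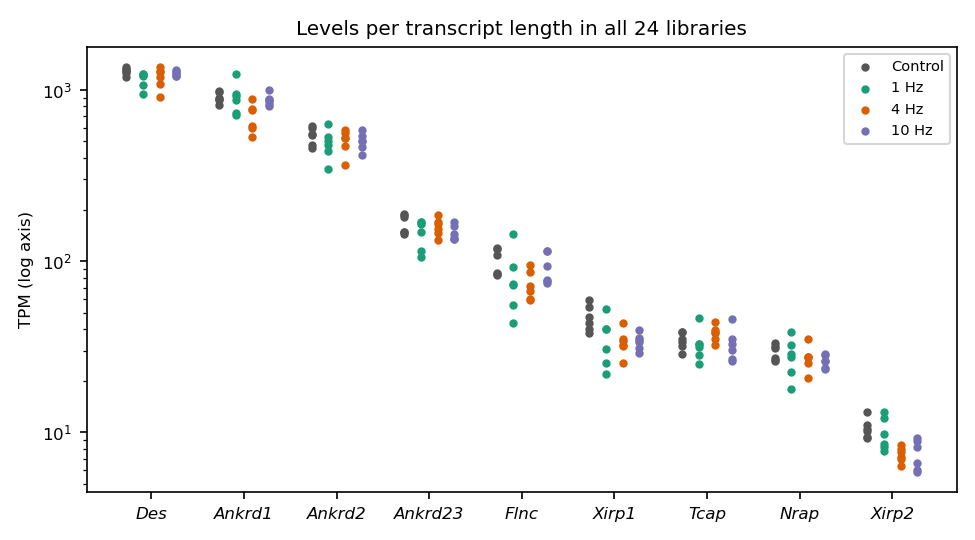
TPM on a log axis for each of the 9 genes, ordered by mean control level, with 1 point per library and colors for the 4 groups. Ankrd2 is at 344 TPM or above in every library, with Des and Ankrd1 higher still, and Xirp2 lies between 5.85 and 13.1 TPM.

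Within the ankyrin repeat family, Ankrd1 made up 56.2 ± 2.49% of the summed TPM in the controls, Ankrd2 33.5 ± 1.76% and Ankrd23 10.3 ± 1.01% (SD, n = 6). The order was the same in the mean of every group. At 4 Hz the mean share of Ankrd1 was 51.0 ± 3.98% and that of Ankrd2 was 37.2 ± 3.84%, and the ranges of both shares overlapped those of the controls. The widest range of any share was that of Ankrd1 at 1 Hz, from 47.8% to 67.2%. In the Xin family Xirp1 made up 81.6 ± 1.73% of the pair's TPM without stimulation. Its share was 77.2 ± 5.00% in the 1 Hz group, 81.7 ± 2.22% in the 4 Hz group and 81.9 ± 3.65% in the 10 Hz group, and all 4 ranges overlapped.

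The comparisons asked whether daily stimulation at each frequency moved these genes away from the control, and whether the frequencies differed. A gene is called changed here where edgeR's p, adjusted over all 13315 genes, is under 0.05, together with an absolute log2(fold change) over 0.5. None of the 9 genes changed by that rule at 1 Hz, where 14.9% of all genes did, and 1 of the 9 had an unadjusted p under 0.05 (46.9% of all genes). None changed at 4 Hz, where 25.1% of all genes did, and 4 of the 9 had an unadjusted p under 0.05 (57.2%). At 10 Hz none changed either, where 0.0376% of all genes did, and 2 of the 9, both lower, had an unadjusted p under 0.05, beside 8.07% of all genes in either direction and 3.91% in the lower one. DESeq2 gave the same count of 0 at 1 and 4 Hz, where it called 14.4% and 21.4% of the genes it gave an adjusted p, and called 1 gene, Xirp2, at 10 Hz, beside 0.166%. Limma on log2(TPM + 1) gave 0 of the 9 at each frequency, beside 14.2%, 26.1% and 0% of all genes. By the adjusted p alone, 1 of the 9 was higher at 1 Hz (37.3% of all genes passed, 19.2% as higher), 2 were higher at 4 Hz (51.4%, 27.5% as higher) and none passed at 10 Hz (0.0376%). The 3 comparisons share the same control libraries.

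Over the 9 genes the median log2(fold change) was 0.063 at 1 Hz, beside 0.041 over all genes tested. It was 0.20 at 4 Hz, beside 0.061, and -0.10 at 10 Hz, beside 0.0067. All 9 fitted values were negative at 10 Hz, while 6 of 9 were positive at 1 Hz and 5 of 9 at 4 Hz. The 95% confidence intervals of the 9 genes together ran from 0.666-fold to 1.47-fold at 1 Hz, from 0.563-fold to 1.78-fold at 4 Hz and from 0.458-fold to 1.25-fold at 10 Hz.

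**Figure D2:**
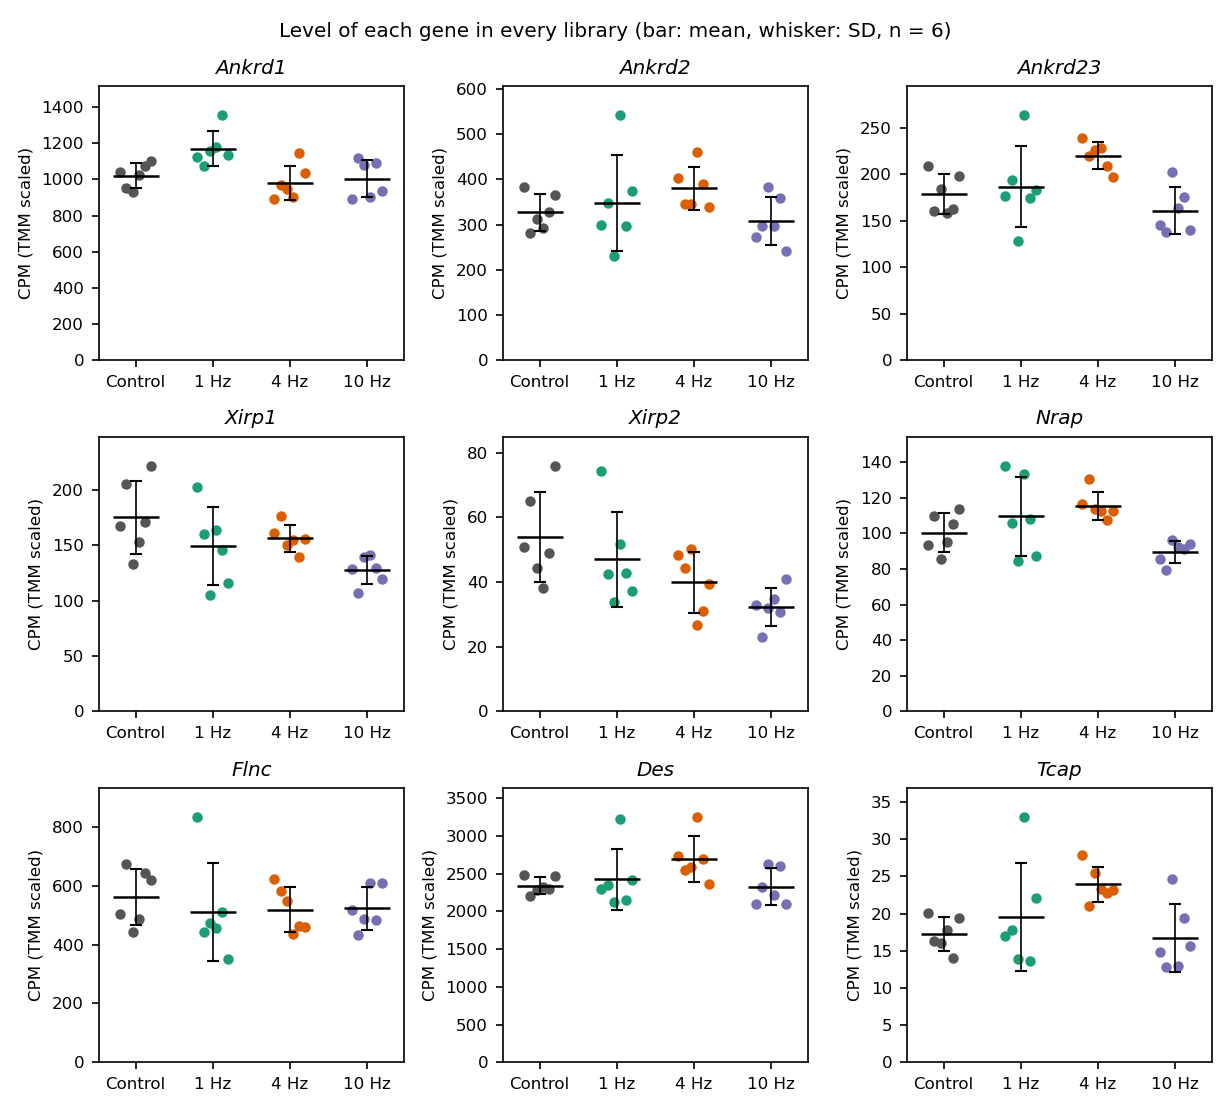
CPM of each gene in all 24 libraries, with points for libraries, a bar for the mean and a whisker for the SD (n = 6) in the control, 1 Hz, 4 Hz and 10 Hz groups. Tcap lies above all controls in every 4 Hz library, Xirp2 has its lowest mean at 10 Hz, and single 1 Hz libraries stand high for Ankrd1, Flnc and Des.

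Ankrd1, which encodes the cardiac ankyrin repeat protein CARP and is also known as a target of the YAP and TEAD pathway, was slightly higher at 1 Hz on the CPM scale. Its level ran from 932 to 1104 CPM in the controls (median 1033), 1074 to 1353 at 1 Hz (median 1145), 892 to 1144 at 4 Hz (median 957) and 892 to 1115 at 10 Hz (median 1009). At 1 Hz 5 of 6 libraries lay above every control, and the 4 and 10 Hz libraries lay across the control range. The log2(fold change) at 1 Hz was 0.20 ± 0.077 (SE), or 1.15-fold, with an adjusted p of 0.0466 in edgeR. With single libraries left out the adjusted p ran from 0.0377 to 0.119 and passed in 8 of 24 cases, and on log2(TPM + 1) the fitted value was -0.020, or 0.12 above the median of all genes of -0.14. The adjusted p also missed the threshold with RLE factors (0.0577), without a filter (0.202) and relative to the myotube markers (0.309), and it passed in 14 of 38 alternatives. At 4 Hz the difference from control was -0.058 ± 0.077 and at 10 Hz -0.026 ± 0.077, with adjusted p of 0.544 and 0.984.

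Ankrd2, whose product Arpp binds titin in slow fibers, spread widely between libraries and passed no test. It ran from 282 to 383 CPM in the controls (median 320), 232 to 542 at 1 Hz (median 324), 339 to 461 at 4 Hz (median 368) and 242 to 382 at 10 Hz (median 297). The 1 Hz libraries lay on both sides of the controls, and all 6 of the 4 Hz libraries lay above the control mean. Against the controls the log2(fold change) was 0.093 ± 0.15 (SE) at 1 Hz, 0.22 ± 0.15 at 4 Hz and -0.085 ± 0.15 at 10 Hz, with adjusted p of 0.64, 0.212 and 0.956.

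Ankrd23, the diabetes-related member of the family, was higher at 4 Hz on the CPM scale. It ran from 158 to 209 CPM in the controls (median 174), 128 to 263 at 1 Hz (median 180), 197 to 239 at 4 Hz (median 223) and 138 to 202 at 10 Hz (median 155). At 4 Hz 5 of 6 libraries lay above every control, whereas the 10 Hz libraries reached down below the lowest control in 3 of 6. The log2(fold change) at 4 Hz was 0.30 ± 0.12 (SE), or 1.23-fold, with an adjusted p of 0.0378 in edgeR. The adjusted p ran from 0.022 to 0.107 with single libraries left out and passed in 12 of 24 cases, and it was 0.0602 in DESeq2 and 0.0516 with RLE factors. On log2(TPM + 1), where the median of all genes was -0.21, the value was -0.060, or 0.15 above that median, and it was 0.21 after TMM of TPM (adjusted p 0.149). Relative to the myotube markers, where the median of all genes was -0.18, it was 0.059 (adjusted p 0.645). The threshold was passed in 15 of 38 alternatives. At 1 Hz the value was 0.063 ± 0.12 and at 10 Hz -0.15 ± 0.12.

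The Xin repeat genes had lower means than the controls at every frequency, and on the CPM scale their largest differences stood at 10 Hz. Relative to the myotube markers those at 4 Hz were larger for both. The median of all genes on that scale was -0.18 at 4 Hz and 0.16 at 10 Hz, and both genes lay further below it at 10 Hz. On log2(TPM + 1) the values of Xirp1 were alike at the 3 frequencies. Against the median of all genes there, Xirp1 stood at -0.31, -0.26 and -0.44 at 1, 4 and 10 Hz. Xirp2, the longer and less abundant of the pair, ran from 38.2 to 75.7 CPM in the controls (median 49.9), 33.7 to 74.2 at 1 Hz (median 42.6), 26.6 to 50.1 at 4 Hz (median 41.8) and 23.1 to 40.9 at 10 Hz (median 32.4). At 10 Hz 5 of 6 libraries lay below every control, and the remaining library lay within the control range. The log2(fold change) was -0.20 ± 0.19 (SE) at 1 Hz, -0.43 ± 0.19 at 4 Hz and -0.73 ± 0.19 at 10 Hz, with adjusted p of 0.428, 0.0603 and 0.18 in edgeR. At 4 Hz the adjusted p was 0.0379 in DESeq2 and 0.0482 in edgeR with RLE factors, for a value of -0.46 in each. It passed in 15 of 38 alternatives, and in 8 of 24 fits with a single library left out. At 10 Hz the unadjusted p was 0.000852 and the adjusted p in DESeq2 was 0.0334 for a value of -0.74, so the call there depends on the tool. With single libraries left out the edgeR value at 10 Hz stayed between -0.81 and -0.61, and its adjusted p between 0.0994 and 0.438. On log2(TPM + 1) the 10 Hz value of Xirp2 was smaller, at -0.458 (adjusted p 0.454 in limma), beside -0.447 at 4 Hz. Against the median of all genes on that scale Xirp2 stood at -0.44 at 10 Hz and -0.24 at 4 Hz. After TMM of TPM its values were 0.062 at 1 Hz, -0.21 at 4 Hz and -0.445 at 10 Hz. None passed there, with adjusted p of 0.781, 0.253 and 0.386 in limma.

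Xirp1, which encodes Xin itself, ran from 133 to 221 CPM in the controls (median 169), 106 to 203 at 1 Hz (median 153), 140 to 176 at 4 Hz (median 155) and 107 to 142 at 10 Hz (median 129). At 10 Hz 4 of 6 libraries lay below every control and all 6 below the control mean. Its log2(fold change) was -0.23 ± 0.13 (SE) at 1 Hz, -0.16 ± 0.13 at 4 Hz and -0.46 ± 0.13 at 10 Hz, with adjusted p of 0.144, 0.282 and 0.194 in edgeR. With single libraries left out the 1 Hz value ran from -0.34 to -0.16, and its adjusted p from 0.0263 to 0.345, past the threshold in 1 of 24 cases. The 4 Hz value then ran from -0.25 to -0.087 and the 10 Hz value from -0.52 to -0.38, and neither passed in any case. The unadjusted p at 10 Hz was 0.00122, and the adjusted p in DESeq2 was 0.0718. On log2(TPM + 1) the values were -0.45 at 1 Hz (adjusted p 0.0394 in limma), -0.47 at 4 Hz (adjusted p 0.0208), and the 10 Hz value of -0.45 had an adjusted p of 0.714. The median of all genes on that scale was -0.14, -0.21 and -0.014, and 25.4%, 41.7% and 0% of them passed. After TMM of TPM the values of Xirp1 were -0.29, -0.21 and -0.44. None passed there, with adjusted p of 0.0931, 0.192 and 0.293 in limma.

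Nrap, the nebulin-related anchoring protein of assembling myofibrils, did not pass the test against the controls at any frequency. It ran from 85.3 to 114 CPM in the controls (median 100.1), 84.5 to 138 at 1 Hz (median 107), 107 to 130 at 4 Hz (median 113) and 79.4 to 96.3 at 10 Hz (median 91.8). All 6 of the 4 Hz libraries lay above the control mean and all 6 of the 10 Hz libraries below it, and each group overlapped the control range. For Nrap the log2(fold change) was 0.12 ± 0.10 (SE) at 1 Hz, 0.20 ± 0.10 at 4 Hz and -0.16 ± 0.10 at 10 Hz, with adjusted p of 0.337, 0.0952 and 0.739.

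Flnc, the muscle filamin, ran from 444 to 673 CPM in the controls (median 562), 351 to 831 at 1 Hz (median 464), 437 to 622 at 4 Hz (median 505) and 431 to 609 at 10 Hz (median 501). The groups overlapped throughout, and the log2(fold change) lay at -0.14 ± 0.15 (SE), -0.12 ± 0.15 and -0.10 ± 0.15 at 1, 4 and 10 Hz, with adjusted p of 0.491, 0.542 and 0.947. With single libraries left out the 1 Hz value of Flnc ran from -0.33 to -0.078. Its adjusted p in edgeR then ran from 0.0323 to 0.727, past the threshold in 1 of 24 cases. Des, the desmin gene and the most abundant of the 9, ran from 2204 to 2477 CPM in the controls (median 2311), 2122 to 3221 at 1 Hz (median 2325), 2362 to 3247 at 4 Hz (median 2645) and 2095 to 2633 at 10 Hz (median 2274). At 4 Hz 5 of 6 libraries lay above every control, with a log2(fold change) of 0.20 ± 0.092 (SE) and an adjusted p of 0.0663 in edgeR. At 1 Hz and 10 Hz the values for Des were 0.050 ± 0.092 and -0.0087 ± 0.092, and its 95% interval at 10 Hz ran from 0.873-fold to 1.13-fold.

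Tcap, which encodes the titin cap telethonin, had the largest positive difference of the 9 genes, at 4 Hz. It ran from 14.0 to 20.0 CPM in the controls (median 17.0), 13.7 to 32.9 at 1 Hz (median 17.4), 21.0 to 27.9 at 4 Hz (median 23.2) and 12.8 to 24.7 at 10 Hz (median 15.2). Every 4 Hz library lay above every control, a separation also seen for 27.6% of all genes tested in that comparison, while the 1 and 10 Hz libraries spread over and beyond the control range. The log2(fold change) at 4 Hz was 0.47 ± 0.18 (SE), or 1.39-fold, with an adjusted p of 0.0278 in edgeR and 0.0331 in DESeq2. Single libraries left out gave adjusted p from 0.00847 to 0.0739, past the threshold in 19 of 24 cases. On log2(TPM + 1), where the median of all genes was -0.21, the value was 0.14 (adjusted p 0.414 in limma), or 0.35 above that median. After TMM of TPM it was 0.40 (adjusted p 0.0467 in limma). Relative to the myotube markers, where the median of all genes was -0.18, it was 0.24 (adjusted p 0.121 in edgeR). On the CPM scale the value at 1 Hz was 0.20 ± 0.18 and at 10 Hz -0.046 ± 0.18.

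**Figure D3:**
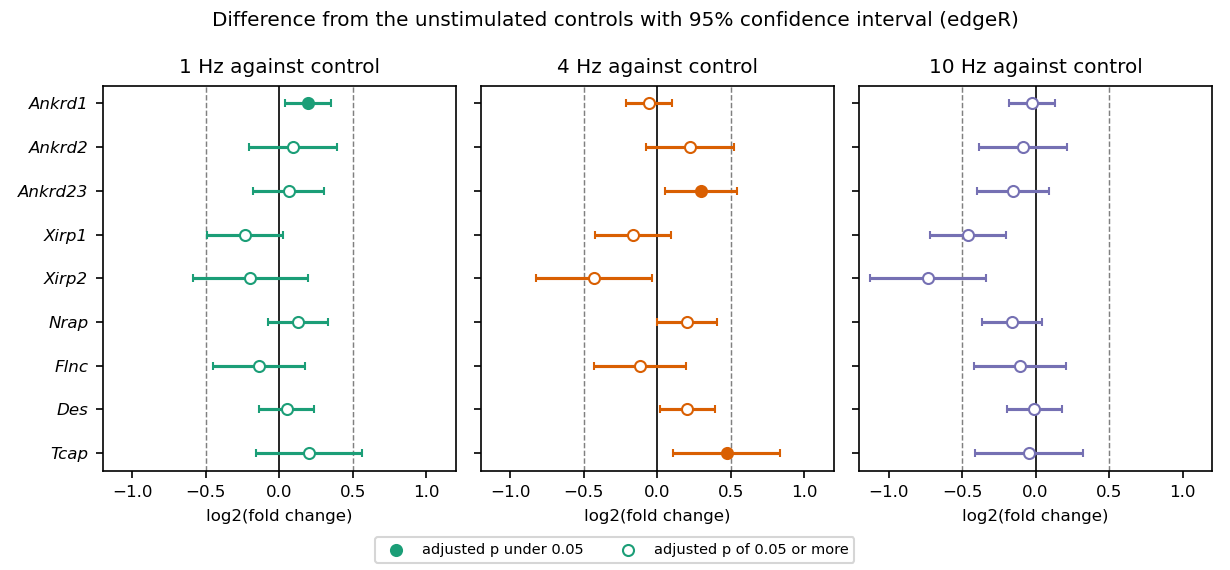
Log2(fold change) of each gene from the control at 1, 4 and 10 Hz with its 95% confidence interval from edgeR, where filled points have an adjusted p under 0.05 and dashed lines mark 0.5 and -0.5. Ankrd1 is filled at 1 Hz, Ankrd23 and Tcap are filled at 4 Hz, and all 9 points lie at or below 0 at 10 Hz, with Xirp2 lowest at -0.73.

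Between frequencies, the same fit found no difference from 1 to 4 Hz for any of the 9 genes, a comparison in which 0% of all genes changed. DESeq2 and limma on log2(TPM + 1) also called 0 of the 9, beside 0.0273% of the genes DESeq2 gave an adjusted p and 0% of all genes in limma. In the edgeR fit 1 gene, Ankrd1, had an unadjusted p under 0.05 (11% of all genes). Its level was lower at 4 Hz than at 1 Hz by a log2(fold change) of -0.25 ± 0.077 (SE), with an adjusted p of 0.322, and 5 of 6 of the 4 Hz libraries lay below every 1 Hz library. From 1 to 10 Hz, 1 of the 9 changed and was lower (10.8% of all genes changed, 4.99% as lower), and by the adjusted p alone 3 of the 9 were lower and none higher (27.9% of all genes passed, 13.1% as lower). Xirp2 was the gene that changed, at -0.53 ± 0.19 (SE) with an adjusted p of 0.0423 in edgeR. Nrap was lower at 10 Hz than at 1 Hz by -0.29 ± 0.10 (adjusted p 0.0349) and Ankrd1 by -0.22 ± 0.077 (adjusted p 0.033). All 6 of the 10 Hz libraries lay below the 1 Hz mean for each of these 3 genes, and the ranges overlapped. Relative to the myotube markers, where the median of all genes moved from -0.038 to 0.14 and 13.3% of them passed, the values were -0.34 for Xirp2 (adjusted p 0.247), -0.099 for Nrap (0.639) and -0.070 for Ankrd1 (0.766), and without a filter none of the 3 passed (adjusted p 0.137, 0.0721 and 0.121). Each of the 3 passed in 17 of the 24 fits with a single library left out.

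From 4 to 10 Hz, 1 of the 9 changed and was lower (21.2% of all genes changed, 10.6% as lower), and by the adjusted p alone 3 of the 9 were lower and none higher (46.3% of all genes passed, 24.4% as lower). Tcap was the gene that changed, lower at 10 Hz by -0.52 ± 0.18 (SE) with an adjusted p of 0.0204 in edgeR. Ankrd23 was lower by -0.45 ± 0.12 (adjusted p 0.00344), with 5 of 6 of the 10 Hz libraries below every 4 Hz library. Nrap was lower by -0.36 ± 0.10 (adjusted p 0.00495), and its 10 Hz libraries, at 79.4 to 96.3 CPM, did not overlap the 4 Hz libraries at 107 to 130 CPM. Such a separation between 4 and 10 Hz was seen for 18.9% of all genes tested. Ankrd2, Xirp1 and Des had values of -0.30, -0.29 and -0.21 with adjusted p of 0.0886, 0.0589 and 0.0604, and Ankrd1 and Flnc had values of 0.032 and 0.012. Of the 14 myotube markers, 12 were lower at 10 Hz than at 4 Hz by the adjusted p (5 of them changed), with a median log2(fold change) of -0.45, and their part in these differences was not tested. Relative to the summed myotube markers the differences were -0.066 for Ankrd23 (adjusted p 0.577 in edgeR), -0.14 for Tcap (adjusted p 0.352) and 0.029 for Nrap (adjusted p 0.867), so none of the 3 passed on that scale. Ankrd1 did pass on it, in the other direction, at 0.41 (adjusted p 0.011), and Flnc was at 0.41 (adjusted p 0.0759), while the median of all genes moved to 0.34 and 47.1% of them passed. The calls for Xirp2 and Tcap sit close to the fold change limit of 0.5, and each was lost when some single libraries were left out, as listed in the closing section.

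The 9 genes differ widely in transcript length, and length moved with the group differences over all genes. At 4 Hz the median log2(fold change) was 0.38 for the 1368 tested coding genes shorter than 1500 bases, 0.046 for the 7487 between 1500 and 5000 bases, and -0.11 for the 3247 longer than 5000 bases. The same medians were 0.25, 0.032 and -0.076 at 1 Hz, and 0.030, 0.0053 and -0.0014 at 10 Hz. Tcap has the shortest canonical transcript of the 9 at 948 bases and Xirp2 the longest at 11967 bases, so at 4 Hz Tcap lay 0.093 above and Xirp2 0.33 below the median of their own length class. Ankrd2 (1306 bases) lay 0.16 below its class at 4 Hz, and Ankrd23 (2051 bases) lay 0.25 above. Nrap (5682 bases) lay 0.31 above its class, Xirp1 (5442 bases) lay 0.056 below and Flnc (9147 bases) lay 0.0083 below. At 10 Hz, where the length classes hardly moved, Xirp1 and Xirp2 lay 0.46 and 0.73 below their class. The part of length in these differences was not tested.

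**Figure D4:**
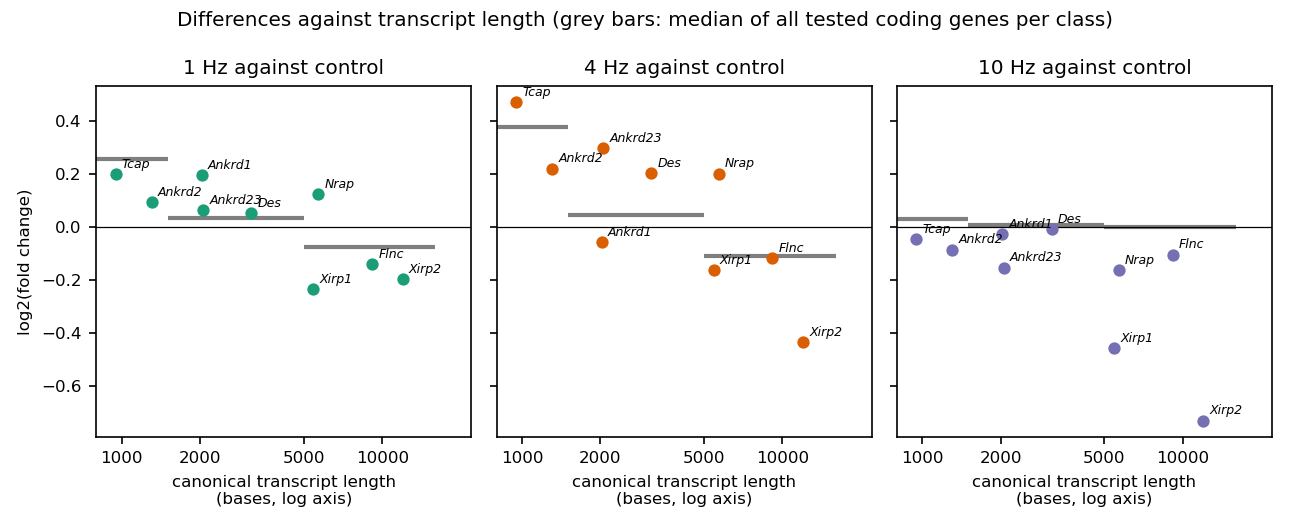
Log2(fold change) from the control against canonical transcript length on a log axis at 1, 4 and 10 Hz, with 1 point per gene and grey bars for the median of all tested coding genes in 3 length classes. The bars step down with length at 1 and 4 Hz and lie near 0 at 10 Hz, where Xirp1 and Xirp2 stand below the rest.

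In the control, 1 Hz and 10 Hz groups some libraries were extreme for several of the genes, whereas at 4 Hz no library was the highest for more than 3. Control replicate 1 and 1 Hz replicate 4 were each the highest of their group for Ankrd2, Ankrd23, Des and Tcap, and 10 Hz replicate 3 was the highest for these 4 genes and Nrap. These libraries had the highest or second highest relative level of short genes in their groups, at 0.21, 0.83 and 0.31. 1 Hz replicate 1, with a value of -0.020, was the highest of its group for Xirp1, Xirp2, Nrap and Flnc, and 10 Hz replicate 6, with -0.21, was the highest for Xirp2 and Flnc. 1 Hz replicate 3 was the lowest for 6 of the 9 genes and 10 Hz replicate 2 for 6 of the 9. The 9 genes had a median coefficient of variation of 12.3% in the controls, beside 10.4% over all genes tested. In the 1, 4 and 10 Hz groups it was 23.6%, 10.0% and 13.8%, beside 17.2%, 14.3% and 12.7%. Tcap varied most at 1 Hz (36.9%) and Des least in the controls (4.61%).

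Measured against the bulk of myotube transcripts instead of all transcripts, the picture shifted. The 14 myotube markers summed to 15492 ± 1480 CPM without stimulation (SD, n = 6), and to 16166 ± 3731, 18272 ± 1364 and 13919 ± 1245 CPM in the 1, 4 and 10 Hz groups. In these bulk samples a difference in the number of myotubes and one in RNA per myotube cannot be told apart, in either direction. With library sizes replaced by that sum, Ankrd2, Ankrd23, Nrap and Des at 4 Hz came to -0.019, 0.059, -0.036 and -0.042, and Tcap to 0.24 (adjusted p 0.121 in edgeR). On this scale the median of all genes at 4 Hz moved to -0.18, and 27.2% of them changed. Xirp2 at 4 Hz then changed, at -0.66 ± 0.19 (SE) with an adjusted p of 0.00934, and Xirp1 was lower by -0.39 ± 0.14 with an adjusted p of 0.0275. At 10 Hz on this scale Xirp2 was at -0.56 and Xirp1 at -0.30, with adjusted p of 0.418 and 0.446, and Nrap and Ankrd23 were both at -0.0065. The median of all genes was then 0.16. The standard error of Ankrd2 at 4 Hz was 0.094 on this scale against 0.15 on the CPM scale, and that of Ankrd1 was 0.13 against 0.077.

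**Figure D5:**
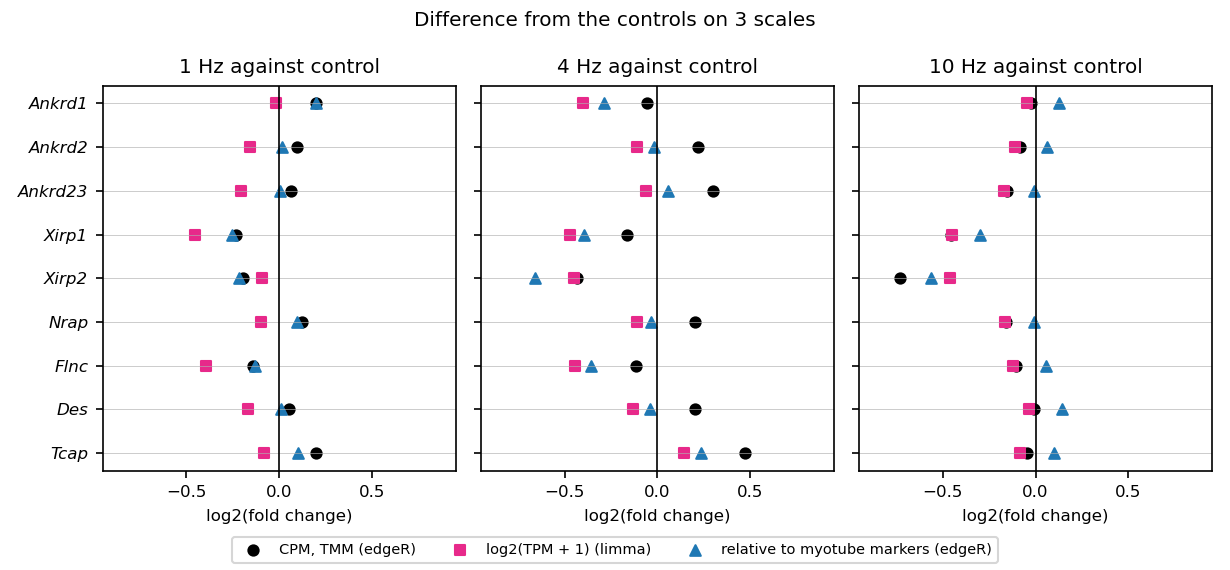
Log2(fold change) of each gene from the control on 3 scales at 1, 4 and 10 Hz: CPM with TMM (circles), log2(TPM + 1) (squares) and relative to the summed myotube markers (triangles). At 4 Hz the circles of Ankrd2, Ankrd23, Nrap and Des are positive and their squares negative, while Xirp1 and Xirp2 are negative on all 3 scales in each panel.

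The deposited TPM values give another view of direction, because that scale moved the median of all genes to -0.14 at 1 Hz, -0.21 at 4 Hz and -0.014 at 10 Hz. On log2(TPM + 1) all 9 genes were negative at 1 Hz, 8 of 9 at 4 Hz, all except Tcap, and 9 of 9 at 10 Hz. Limma passed Xirp1 at 1 Hz (25.4% of all genes passed), and Ankrd1, Xirp1 and Xirp2 at 4 Hz (41.7%), with adjusted p of 0.007 for Ankrd1 (-0.40) and 0.00811 for Xirp2 (-0.45). Relative to the median of all genes on that scale, Ankrd1 stood at -0.19, Xirp1 at -0.26, Xirp2 at -0.24 and Flnc at -0.24 at 4 Hz, Tcap at 0.35 and Ankrd23 at 0.15. After TMM scaling of the TPM values, 4 of 9 genes were negative at 4 Hz and 1, Tcap, passed the adjusted p (42.3% of all genes). At 1 Hz the directions of Ankrd1, Ankrd2, Ankrd23, Nrap, Des and Tcap, and of Xirp2 after TMM scaling of TPM, differed between the scales run. At 4 Hz those of Ankrd2, Ankrd23, Nrap and Des did, and at 10 Hz those of Ankrd1, Ankrd2, Flnc, Des and Tcap did relative to the myotube markers, where the median of all genes was 0.16 and these 5 values lay below it. Signs on these scales include the shift of all genes. Xirp1 and Xirp2 were below the controls at 4 and 10 Hz on every scale run.

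Profiles over all 24 libraries were nearest to each other for Ankrd2, Ankrd23 and Des. The root mean square difference of log2 CPM, after removing each gene's mean, was 0.12 between Ankrd2 and Ankrd23, 0.13 between Ankrd2 and Des, 0.15 between Ankrd23 and Des, and 0.17 between Xirp1 and Nrap, and it reached 0.51 between Xirp2 and Tcap. Among all genes tested, those nearest to Ankrd2 were Pdxp (0.076) and Tpm2 (0.090), and those nearest to Ankrd23 were Klhl40 (0.10) and Tpm2 (0.11). The genes nearest to Nrap were Myom3 and Myom1 (0.11 and 0.12), both encoding myomesins of the M-band, and those nearest to Tcap were the troponin gene Tnni1 (0.14) and the muscle phosphoglycerate mutase gene Pgam2 (0.15). Xirp1 lay nearest to Myo18b (0.16) and Phkb (0.17), Xirp2 to Synm (0.27), the synemin gene, and Amot (0.28). Ankrd1 lay nearest to Ppm1b and Ranbp9 (both 0.11), Flnc to Lrba and Snrnp200 (both 0.14), and Des to Syngr2 (0.061) and Eef1g (0.062). These values share libraries, depth and scaling and describe likeness only.

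The partners of these proteins were followed in 5 lists of 92 genes, of which 87 passed the filter. Against the controls, 10 of the 87 changed at 1 Hz (11.5%), 13 at 4 Hz (14.9%) and 1 at 10 Hz (1.15%), beside 14.9%, 25.1% and 0.0376% of all genes. Among 21 Z-disc and titin-linked genes, 1 fell at 1 Hz, 1 rose and 1 fell at 4 Hz, and 1 fell at 10 Hz, and Ttn itself had values of 0.043, 0.23 and -0.077 that did not pass. The gene that fell was Synpo2l in all 3 cases, an actin-bundling Z-disc gene, from 221 ± 13.9 CPM in the controls to 129 ± 17.9 at 1 Hz, 122 ± 8.95 at 4 Hz and 155 ± 8.25 at 10 Hz (SD, n = 6). Its log2(fold change) was -0.77, -0.86 and -0.50 with adjusted p of 3.73e-08, 3.78e-09 and 0.00278 in edgeR, and the 10 Hz call was lost in 10 of 38 alternatives by falling under the fold change limit or the threshold. The gene that rose at 4 Hz was Csrp3, the muscle LIM protein that binds Tcap, from 66.7 ± 5.98 to 110 ± 22.1 CPM, with a log2(fold change) of 0.72 and an adjusted p of 0.000988. That call was lost in 4 of 38 alternatives, relative to the myotube markers and on 3 forms of TPM, where the value was as low as 0.37.

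Of the 13 intermediate filament genes and linkers, 1 fell at 1 Hz, and 1 rose and 1 fell at 4 Hz. Sync, the syncoilin gene, a desmin partner, fell from 51.9 ± 4.29 CPM to 35.2 ± 7.30 at 1 Hz and 35.1 ± 4.56 at 4 Hz, with log2(fold change) of -0.56 at both and adjusted p of 0.000619 and 0.000384. Krt19, a keratin that tethers the costamere, rose at 4 Hz to 83.6 ± 15.8 from 52.1 ± 3.46 CPM (0.68, adjusted p 3.41e-06), a call lost under the same 4 alternatives, with a value as low as 0.38. The Sync call at 1 Hz was lost in 2 of 38. Of 16 filamin C partners only Igfn1 changed, lower at 1 Hz at -0.51 with an adjusted p of 0.00677, a call lost in 13 of 38 alternatives. Of 20 adherens junction and thin filament partners, 2 fell at 1 Hz, and 1 rose and 4 fell at 4 Hz. Cdh2, the N-cadherin gene, fell from 145 ± 7.13 CPM to 80.8 ± 6.59 at 1 Hz and 81.3 ± 9.34 at 4 Hz (-0.84 and -0.83), and Lmod2, a leiomodin of thin filament ends, rose at 4 Hz by 0.61. The call of Lmod2 was also lost in 4 of 38 alternatives, with a value as low as 0.29.

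Of 17 YAP and stretch-response genes, 3 rose and 2 fell at 1 Hz, and 2 rose and 2 fell at 4 Hz, with none changed at 10 Hz. Ccn2, a matricellular target of YAP, rose at 4 Hz from 585 ± 107 to 1183 ± 280 CPM (log2(fold change) 1.02, adjusted p 3.03e-05). At 1 Hz it rose to 1396 ± 299 CPM (1.25, adjusted p 4.92e-06). Ccn1, of the same family, rose by 1.56 ± 0.49 (SE) at 1 Hz and 1.98 ± 0.50 at 4 Hz, with adjusted p of 0.0185 and 0.00277. Nuak2 rose by 0.57 at 1 Hz (adjusted p 3.75e-06). In all 4 fits of TPM it was no longer called, with a value as low as 0.34. Tead4, a DNA-binding partner of YAP in muscle, fell from 68.0 ± 5.39 CPM to 32.5 ± 3.66 at 1 Hz and 34.6 ± 3.24 at 4 Hz, with log2(fold change) of -1.07 and -0.98. Ankrd1, which belongs to the same pathway, stood at 0.20 and -0.058 in those comparisons. The median log2(fold change) of the 5 lists lay between -0.13 and 0.051 at 1 Hz and between -0.11 and 0.066 at 4 Hz. Over all genes it was 0.041 and 0.061. On log2(TPM + 1) all 5 medians were negative at each frequency. So was the median of all genes, at -0.14, -0.21 and -0.014 for 1, 4 and 10 Hz. After TMM of TPM the Z-disc list stood at 0.010 at 1 Hz and 0.014 at 4 Hz, and the other lists stayed negative.

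Cell type markers moved in part with these groups. Of the 14 myotube markers, 2 rose at 4 Hz and none changed at 1 or 10 Hz, with a median of 0.28 at 4 Hz, 0.089 at 1 Hz and -0.15 at 10 Hz. Of 10 myoblast and proliferation markers, 2 rose and 2 fell at 1 Hz, 2 rose and 5 fell at 4 Hz, none changed at 10 Hz, and their summed level ran from 279.6 to 305 TPM in the controls and in the stimulated groups from 124 to 217 (1 Hz), 115 to 182 (4 Hz) and 250.1 to 279 (10 Hz). The fibroblast sum ran from 496 to 794 TPM in the controls and from 439 to 695 at 4 Hz, and 1 of its 8 tested genes fell at 1 Hz and 1 at 4 Hz. Of 2 tested adipocyte markers, 1 rose at 1 Hz, and 1 rose and 1 fell at 4 Hz, while 6 of the 8 adipocyte markers had a mean under 1 TPM in every group. Of the 10 cardiac markers Tnnt2 and Myl4, which immature skeletal myotubes also express, made up most of the sum of 2621 to 3327 TPM in the controls, while 2 of the 10, Nppa and Myl7, were at 0 there, and 2 of the 8 tested rose at 4 Hz. The osteoblast sum ran from 1096 to 1418 TPM in the controls and from 959.9 to 1288 at 4 Hz, with none of its 4 tested genes changed. The part of these shifts in the differences of the 9 genes was not tested. Opposite-strand genes overlap 7 of the 9, all except Ankrd2 and Xirp1. Exons of an opposite-strand model overlap those of Ankrd1, Xirp2, Nrap, Flnc, Des and Tcap, and where counting ignored strand, reads from the shared bases could not be told apart. Ankrd23 shares exon bases with the same-strand model Gm42417, which strand cannot separate.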

How the data were processed

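RNA of the C2C12 tissues was sequenced as read pairs. For each gene the deposited tables hold 2 values made by the authors: the estimated count from salmon, not normalized, and the TPM, which is divided by length and scaled within each library. Reads went through nf-core/rnaseq with GRCm39 gene models from Ensembl, per the methods. The labels also name STAR and BWA, and the use of read strand in counting is not given in the sources used here. Of the estimated counts, 6.15% are not whole, and all were rounded.

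Low genes were removed with filterByExpr (count 10, total 15) and factors were set by TMM. A quasi-likelihood F test (edgeR 4.0.16, R 4.3.3) ran in 1 fit of all 24 libraries with a mean per group, and p was adjusted over 13315 genes by Benjamini-Hochberg. Likeness used log2 CPM (prior count 2). Positions and lengths came from GENCODE M39. All 24 columns were matched to samples by name, and no libraries of a group agreed within sampling noise. The alternatives replaced the factors (RLE, upper quartile, the summed myotube markers), the filter (none, or 50 counts in 6 libraries), the samples fitted, the design (a replicate block), or the test (DESeq2 1.42.0, also with apeglm 1.24.0, and limma 3.58.1 on log2(TPM + 1) or log2(TPM + 0.1) where 6 libraries reach 1 TPM). DESeq2 ran with its own factors and on 27811 genes, and limma on TPM changed the measure, scaling and filter together with the test. Each library was also left out in turn. The scripts were tested on simulated data. Named are all 9 genes, the 2 genes nearest to each in profile, and from each list the changed gene with the smallest p per direction and frequency. Ttn, Ccn1, Nppa, Myl7, Tcf21, Tnnt2 and Myl4 were named after their values were seen. The genes, lists and rules were chosen with earlier results of these data known. The promoter window of 1 gene is not reported here.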

Additional observations from a re-analysis of the deposited data

Results flagged for a closer look

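Among the 36 sets of 6 libraries formed by the 9 genes and 4 groups, 3 held a library far from the other 5, where chance alone gives about 5% of independent sets. These sets share libraries, and the share over all genes is not given here. All 3 were at 1 Hz, each in a different library. Ankrd1 stood at 1353 CPM in replicate 5, with the next library at 1178. Flnc stood at 831 CPM in replicate 1, with the next at 509. With single libraries left out, the 1 Hz value of Flnc against the controls ran from -0.33 to -0.078 and passed the adjusted p in 1 of 24 fits. Des stood at 3221 CPM in replicate 4, with the next at 2418. Without replicate 4, the 1 Hz value of Des against the controls was -0.070 on the log2 scale, and it did not pass the test with or without that library.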

How the results depend on the processing

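Over the 38 alternatives, Xirp1 and Xirp2 stayed below the controls at 4 and 10 Hz, and Tcap stayed above them at 4 Hz. Counts of changed genes among the 9 moved as follows. With no threshold on the fold change the count was 1 higher at 1 Hz (Ankrd1), 2 higher at 4 Hz (Ankrd23 and Tcap), 3 from 1 to 10 Hz and 3 from 4 to 10 Hz. At 4 Hz, 1 gene was higher with upper-quartile factors (Tcap, where 25.7% of all genes changed) and 1 lower relative to the myotube markers (Xirp2, 27.2%), and at 10 Hz 1 was lower with DESeq2, with and without apeglm (Xirp2, 0.106% and 0.166%). The call of Xirp2 from 1 to 10 Hz was lost, leaving 0, relative to the myotube markers, without a filter, with apeglm, on log2(TPM + 1) with and without a filter, on log2(TPM + 0.1), and without the 4 libraries of concentrated counts, an alternative chosen after seeing the data. The call of Tcap from 4 to 10 Hz was lost, leaving 0, under the same settings and also with RLE factors, with only the 2 groups compared, with DESeq2 without apeglm, and on log2(TPM + 1) after TMM. With single libraries left out, counts at 1 Hz, at 10 Hz and from 1 to 4 Hz stayed at 0. The count higher at 4 Hz ran from 0 to 1, with Tcap called without control replicate 1 or 6 or 4 Hz replicate 2. The count lower at 4 Hz ran from 0 to 1, with Xirp2 called without control replicate 3 or 4 or 4 Hz replicate 3. From 1 to 10 Hz it ran from 0 to 1, and Xirp2 was lost without 1 Hz replicate 1 or 4 or any of 10 Hz replicates 1 to 5. From 4 to 10 Hz it ran from 0 to 2, with Ankrd23 added without 10 Hz replicate 3, and Tcap lost without control replicate 3 or 5, 1 Hz replicate 4 or 6, 4 Hz replicate 1 or 3, or 10 Hz replicate 1, 2, 4 or 6. The cause was not tested.

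Directions that turned did so for values that had not passed the test, except Ankrd1 at 1 Hz, Ankrd23 at 4 Hz and Nrap from 4 to 10 Hz. Those 3 turned on scales that moved the median of all genes to -0.14 and -0.21 (log2(TPM + 1) with the filter, 1 and 4 Hz) and 0.34 (myotube markers, 4 to 10 Hz). Against these medians none of the 3 turned. On log2(TPM + 1) without a filter, over 27870 genes, the medians were -0.018 at 1 Hz and -0.026 at 4 Hz. There Ankrd1 at 1 Hz (-0.020) and Ankrd23 at 4 Hz (-0.060) lay below the median. On log2(TPM + 1), with or without a filter, the 1 Hz values were -0.020 (Ankrd1), -0.16 (Ankrd2), -0.21 (Ankrd23), -0.10 (Nrap), -0.17 (Des) and -0.083 (Tcap), and the 4 Hz values -0.11 (Ankrd2), -0.060 (Ankrd23), -0.11 (Nrap) and -0.13 (Des). On log2(TPM + 0.1) they were -0.020, -0.16, -0.21, -0.11, -0.17 and -0.086 at 1 Hz and -0.11, -0.060, -0.12 and -0.13 at 4 Hz, in the same order. After TMM of TPM, the 1 Hz values of Ankrd23 and Xirp2 were -0.038 and 0.062. Without the 4 libraries, 1 Hz values were -0.16 (Ankrd2), -0.090 (Ankrd23), 0.0038 (Flnc), -0.075 (Des) and -0.15 (Tcap). Relative to the myotube markers, 4 Hz values were -0.019 (Ankrd2), -0.036 (Nrap) and -0.042 (Des), 10 Hz values 0.13 (Ankrd1), 0.062 (Ankrd2), 0.057 (Flnc), 0.14 (Des) and 0.098 (Tcap), and Nrap from 4 to 10 Hz was 0.029. With single libraries left out, 1 Hz values ran from -0.099 to 0.17 (Ankrd2), -0.083 to 0.13 (Ankrd23), -0.070 to 0.083 (Des) and -0.046 to 0.29 (Tcap), each negative without 1 Hz replicate 4. The 10 Hz values ran from -0.056 to 0.0062 (Ankrd1), -0.048 to 0.021 (Des) and -0.19 to 0.019 (Tcap).

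Equal replicate numbers did not pair the libraries: correlations of their deviations ran from -0.332 to 0.242. With the replicate number as a block, Ankrd23 at 4 Hz was 0.30 with an adjusted p of 0.0578 in edgeR, Ankrd1 at 1 Hz was 0.19 with 0.0389, and Tcap at 4 Hz was 0.47 with 0.0361. From 1 to 10 Hz the adjusted p of Nrap rose to 0.0602, that of Xirp2 was 0.05 after rounding and still passed, and that of Ankrd1 was 0.0272, and Ankrd23, Nrap and Tcap from 4 to 10 Hz passed with the block.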
